A study of Mus musculus with 9 samples.

Results

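The 10 genes described here, Col1a1, Col1a2, Col3a1, Sparc, Cxcl12, Fn1, Bgn, Lum, Dcn and Spp1, are matrix and stromal genes of marrow. They were taken by symbol from gene counts of CD11b+ bone marrow cells, and all 10 were found among the 23337 genes in the counts. Of the 10, 8 had enough reads for a test between groups, as did 12553 of all genes, while Lum and Dcn did not. RNA was sequenced from 9 male C57BL/6 mice, obtained at 3 to 6 weeks of age, in 3 groups of 3. The question asked of these libraries was how extracellular vesicles (EVs) of prostate cancer cells change marrow myeloid cells, and whether HDL NPs, nanoparticles that mimic high-density lipoprotein, alter that response.

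The PBS group received the vehicle, phosphate-buffered saline, in 100 µl by tail vein on days 1, 3 and 5. The EnzR EVs group received on the same days 10 µg of EV protein in 100 µl, from enzalutamide-resistant CWR-R1 cells, a human prostate cancer line. The labels call these vesicles exosomes. The EnzR EVs + HDL NPs group received the same EVs and also HDL NPs on days 0, 2 and 4, at 1 µM in the labels and 100 µM in the methods, a difference not settled here. A group given HDL NPs alone was not analysed here. Marrow was taken 24 h after the last injection, red cells were lysed, and CD11b+ cells were kept by magnetic positive selection, a gate that does not select for stromal or bone cells.

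Marrow rests on a scaffold of collagens, adhesive glycoproteins and proteoglycans, made largely by stromal and bone-forming cells. Reticular stromal cells that surround sinusoids make CXCL12, the chemokine that holds haematopoietic cells in marrow through its receptor CXCR4. Osteoblasts make type I collagen, SPARC and osteopontin in abundance, whereas fibronectin and osteopontin are also made by myeloid cells.

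Promoter sequence is shown for Cxcl12, Sparc and Bgn, whose levels followed each other across the 9 libraries, and for Col1a2, whose level did not follow them. A RefSeq table on GRCm38.p6 held promoters for 6 of the 10 members (Bgn, Col1a2, Col3a1, Cxcl12, Sparc and Spp1). Each sequence is the 250 bases before a RefSeq start, written 5′ to 3′ on the gene's strand. Capitals mark matches, on either strand, to the TATA box letters TATAAA, to the CAAT box letters CCAAT or to the GC box letters GGGCGG. The windows lie at chr6:117168285-117168534 on the plus strand for Cxcl12, chr11:55420081-55420330 on the minus strand for Sparc, chrX:73483351-73483600 on the plus strand for Bgn and chr6:4505368-4505617 on the plus strand for Col1a2.
Cxcl12: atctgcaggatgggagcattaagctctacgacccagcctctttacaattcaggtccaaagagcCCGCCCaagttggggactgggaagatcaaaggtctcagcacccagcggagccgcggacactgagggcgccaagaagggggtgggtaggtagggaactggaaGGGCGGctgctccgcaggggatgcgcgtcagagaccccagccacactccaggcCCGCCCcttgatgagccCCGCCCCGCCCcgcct
Sparc: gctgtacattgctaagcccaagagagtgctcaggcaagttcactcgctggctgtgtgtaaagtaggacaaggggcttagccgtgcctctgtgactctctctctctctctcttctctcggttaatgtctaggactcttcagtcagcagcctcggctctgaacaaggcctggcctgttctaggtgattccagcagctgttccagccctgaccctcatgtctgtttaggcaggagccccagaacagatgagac
Bgn: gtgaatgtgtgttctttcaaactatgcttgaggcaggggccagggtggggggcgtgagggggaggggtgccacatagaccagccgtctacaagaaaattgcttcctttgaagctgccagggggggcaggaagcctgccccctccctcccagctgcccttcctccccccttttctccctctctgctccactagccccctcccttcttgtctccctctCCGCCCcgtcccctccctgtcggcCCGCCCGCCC
Col1a2: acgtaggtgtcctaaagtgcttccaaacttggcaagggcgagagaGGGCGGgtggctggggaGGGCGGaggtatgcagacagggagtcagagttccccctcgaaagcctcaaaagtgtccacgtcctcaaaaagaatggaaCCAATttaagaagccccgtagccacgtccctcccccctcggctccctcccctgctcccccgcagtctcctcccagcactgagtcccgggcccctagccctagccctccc
The Cxcl12 window held 5 matches to GGGCGG, the Bgn window 3 and the Col1a2 window 2, counting overlapping matches separately, and Col1a2 also held 1 CCAAT. The Sparc window held none of the 3 motifs. Over the 32851 promoters of the table at this length, 32.7% held GGGCGG, 33.8% held CCAAT and 12.4% held TATAAA, so none of these letters is rare. The Sparc and Col1a2 windows lie inside the GENCODE spans given below for these genes, downstream of the outermost start, so they are upstream of the RefSeq start used and not of every annotated start.

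Libraries held 2575776 to 18110561 counts. The lowest totals were those of EnzR EVs replicate 1 (2575776) and PBS replicate 1 (6006087), and the same libraries had the highest shares of counts on Rn45s, the ribosomal RNA precursor, at 42.7% and 20.3%. EnzR EVs replicate 3 followed with 14.2% of 8554487 counts, and the other 6 libraries lay between 0.657% and 2.87%. Levels below are counts scaled to library size with TMM factors (CPM), and 3 counts, the limit that a count of 0 allows, correspond to 0.160 to 1.65 CPM depending on the library. Intervals in brackets are exact 95% Poisson intervals of counts above 0, and they and the limit cover counting error only. Reads that are copies of 1 molecule cannot be told apart in these counts, and the replicates are separate mice by the study's methods.

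Fn1 dominated the set. Divided by exonic length, its level was 62.8 to 177 CPM per kb over the 9 libraries, with a median of 123. Spp1 came next at a median of 6.61 CPM per kb (1.33 to 7.95), followed by Cxcl12 at 4.35 (0.541 to 7.73) and Sparc at 1.73 (0 to 3.22). Per kb, Fn1 lay above Spp1 in 9 of 9 libraries, Spp1 above Cxcl12 in 8 and Cxcl12 above Sparc in 9. The exonic length joins the exons of all annotated transcripts and was 7.16 kb for Cxcl12 and 1.65 kb for Spp1. In CPM not divided by length, Cxcl12 lay above Spp1 in every library except PBS replicate 1. Col1a2, Bgn and Col1a1, with medians of 1.23, 1.19 and 1.10 CPM per kb, had overlapping ranges, and Col1a2 exceeded Bgn in 4 of 9 libraries. Col3a1, at a median of 0.118 CPM per kb, was low but had more than 3 counts in 7 of 9 libraries, and Lum and Dcn, at medians of 0.0234 and 0.0549 CPM per kb, were near or below the limit of detection. Together the 10 genes took 0.0407% to 0.145% of the counts, and Fn1 alone was 90.0% to 98.4% of the members' counts.

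**Figure D1:**
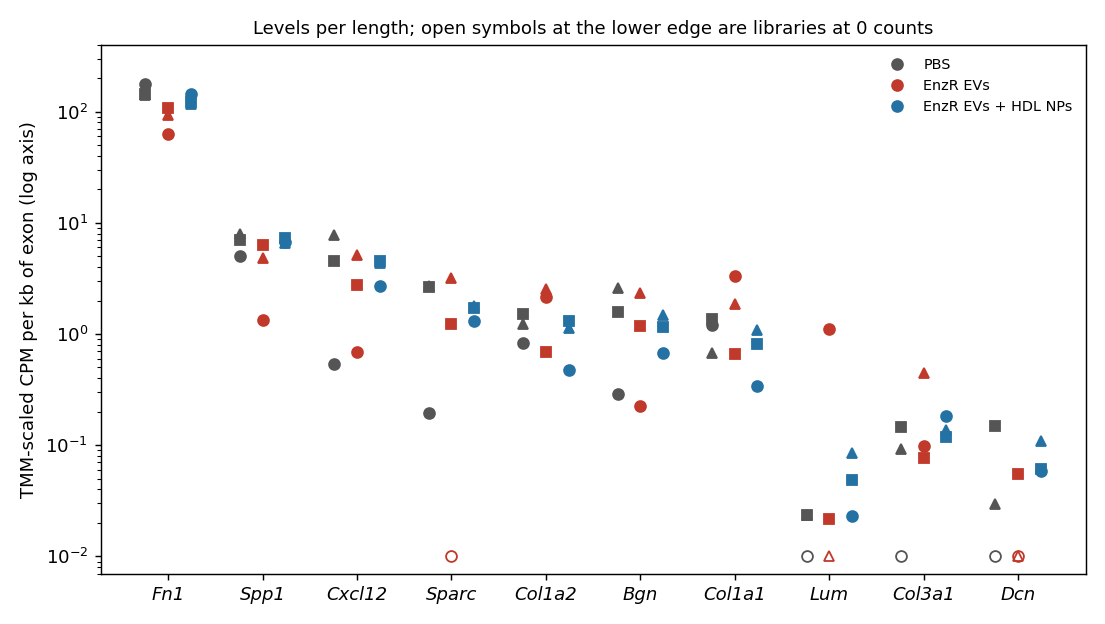
Level of each member per kb of exon (log axis, TMM-scaled CPM per kb) in each of the 9 libraries, with colour for group and circles, squares and triangles for replicates 1, 2 and 3; open symbols at the lower edge are libraries with 0 counts. Fn1 stands above the other 9 genes in all libraries, and Sparc, Cxcl12 and Bgn each spread widely within the PBS and EnzR EVs groups.

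The counts held CD11b and myeloid transcripts in every library, with no library of unsorted marrow for comparison. Itgam, which encodes CD11b, was at 1389 to 2006 CPM in every library, and 18 CD11b myeloid genes summed to 36495 to 157188 CPM. The lowest sums, 36495, 63676 and 75166 CPM, were in EnzR EVs replicate 1, PBS replicate 1 and EnzR EVs replicate 3, the libraries with the highest Rn45s shares. The part of the Rn45s share in these sums was not tested. Markers of bone-forming cells were mixed. Bglap2, one of the osteocalcin genes, had 0 counts in all libraries, Sp7, the osteoblast transcription factor, had 0 to 2 counts, and 5 to 11 of 19 osteoblast and osteocyte genes were at 0 in each library. Bglap, another osteocalcin gene, had 2 counts in all after PBS, 5 after EnzR EVs and 2 after EnzR EVs + HDL NPs. Whether reads that fit both osteocalcin genes were dropped from the counts was not tested. That list summed to 41.8 to 66.4 CPM, of which Runx2, a factor of early osteoblasts, made 35.9 to 54.6 CPM. Omd, which encodes osteomodulin, was detected at 0.563 to 4.94 CPM, and Ibsp, which encodes bone sialoprotein, at 0 to 3.10 CPM, with 0 and 1 count in EnzR EVs replicate 1 and PBS replicate 1 and 20 to 52 counts in each other library. The 18 fibroblast genes summed to 637 to 991 CPM, most of it from Gsn, the widely expressed actin-severing protein gelsolin (449 to 705 CPM), and Pi16 (178 to 274 CPM). Dpt, Twist1 and Twist2 of that list had 0 counts in every library, and 4 to 11 of the 18 were at 0. Reticular markers were detected at low levels: Lepr, the leptin receptor of CXCL12-abundant reticular cells, was at 0.352 to 8.35 CPM, and Kitl, which encodes stem cell factor, at 1.65 to 11.6 CPM. The 21 reticular stromal genes summed to 463 to 883 CPM, but Vcam1, Apoe and Igfbp4, which macrophages or other cells can also make, made most of that sum. The single markers named here and below for these cell types, apart from Runx2, Omd, Gsn, Pi16, Vcam1, Apoe and Igfbp4, were picked after their values were seen. In bulk RNA, fewer cells of a type and less RNA per cell cannot be told apart.

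Fn1 encodes fibronectin, the glycoprotein that links cells to collagen and fibrin through integrins. It lies at chr1:71585520-71653200 on the minus strand (GENCODE M21, GRCm38). Its level was 1503, 1228 and 1185 CPM in the PBS mice, 533, 923 and 783 CPM in the EnzR EVs mice, and 1233, 1041 and 984 CPM in the EnzR EVs + HDL NPs mice. All 3 EnzR EVs mice lay below all 6 other mice, while the PBS and EnzR EVs + HDL NPs mice overlapped. The Rn45s shares of the 3 EnzR EVs libraries were 42.7%, 1.15% and 14.2% in the same order, so that Fn1 was lower where the share was higher, whereas PBS replicate 1, with 20.3%, had the highest Fn1 level of all. The part of the Rn45s share in the Fn1 values was not tested. Between EnzR EVs and PBS the log2 fold change was -0.81 (SE 0.221, 95% interval -1.29 to -0.32, n = 3 against 3). By p the gene ranked 30 of 12553, and it did not pass adjustment over all genes (edgeR adjusted p = 0.928). Between EnzR EVs + HDL NPs and EnzR EVs the log2 fold change was 0.54 (SE 0.220, edgeR adjusted p = 0.461), and between EnzR EVs + HDL NPs and PBS it was -0.27 (SE 0.220, edgeR adjusted p = 1.00). These comparisons share groups, so the pair of differences against EnzR EVs rests on the same 3 mice. The lowest Fn1 level was in EnzR EVs replicate 1. Without that library the log2 fold change of EnzR EVs + HDL NPs against EnzR EVs was 0.34 (edgeR adjusted p = 0.801). Without it that of EnzR EVs against PBS was -0.61 (edgeR adjusted p = 1.00), and without both libraries of lowest total, an alternative chosen after seeing the data, it was -0.49 (edgeR adjusted p = 0.501). limma's voom with sample quality weights, also chosen after seeing the data, gave -0.67 with an adjusted p of 0.0149, in a fit that called 1990 genes in all. That was the 1 member called in any comparison under any alternative.

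Spp1 encodes osteopontin, a phosphoprotein of bone matrix that is also secreted by macrophages and binds integrins and CD44. It lies at chr5:104435118-104441050 on the plus strand. Its level was 8.27, 11.6 and 13.1 CPM after PBS, 2.19, 10.3 and 7.92 CPM after EnzR EVs, and 11.0, 12.0 and 10.9 CPM after EnzR EVs + HDL NPs. The 3 EnzR EVs + HDL NPs mice were close together and all above the 3 EnzR EVs mice, whereas PBS overlapped both groups. Each EnzR EVs mouse lay below the PBS mouse of the same replicate number, but the numbers were not taken to pair the mice. The share of all genes with that order was not counted. The 3 lowest levels were in the 3 libraries with the highest Rn45s shares, EnzR EVs replicates 1 and 3 and PBS replicate 1, and the 6 others lay at 10.3 to 13.1 CPM. The part of the Rn45s share in the Spp1 values was not tested. The value of 2.19 CPM came from 4 counts (0.598 to 5.62 CPM). The log2 fold change was -0.54 (SE 0.356, edgeR adjusted p = 0.928) for EnzR EVs against PBS and 0.56 (SE 0.354, edgeR adjusted p = 0.504) for EnzR EVs + HDL NPs against EnzR EVs. For EnzR EVs + HDL NPs against PBS it was 0.024, with a 95% interval from -0.73 to 0.78.

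**Figure D2:**
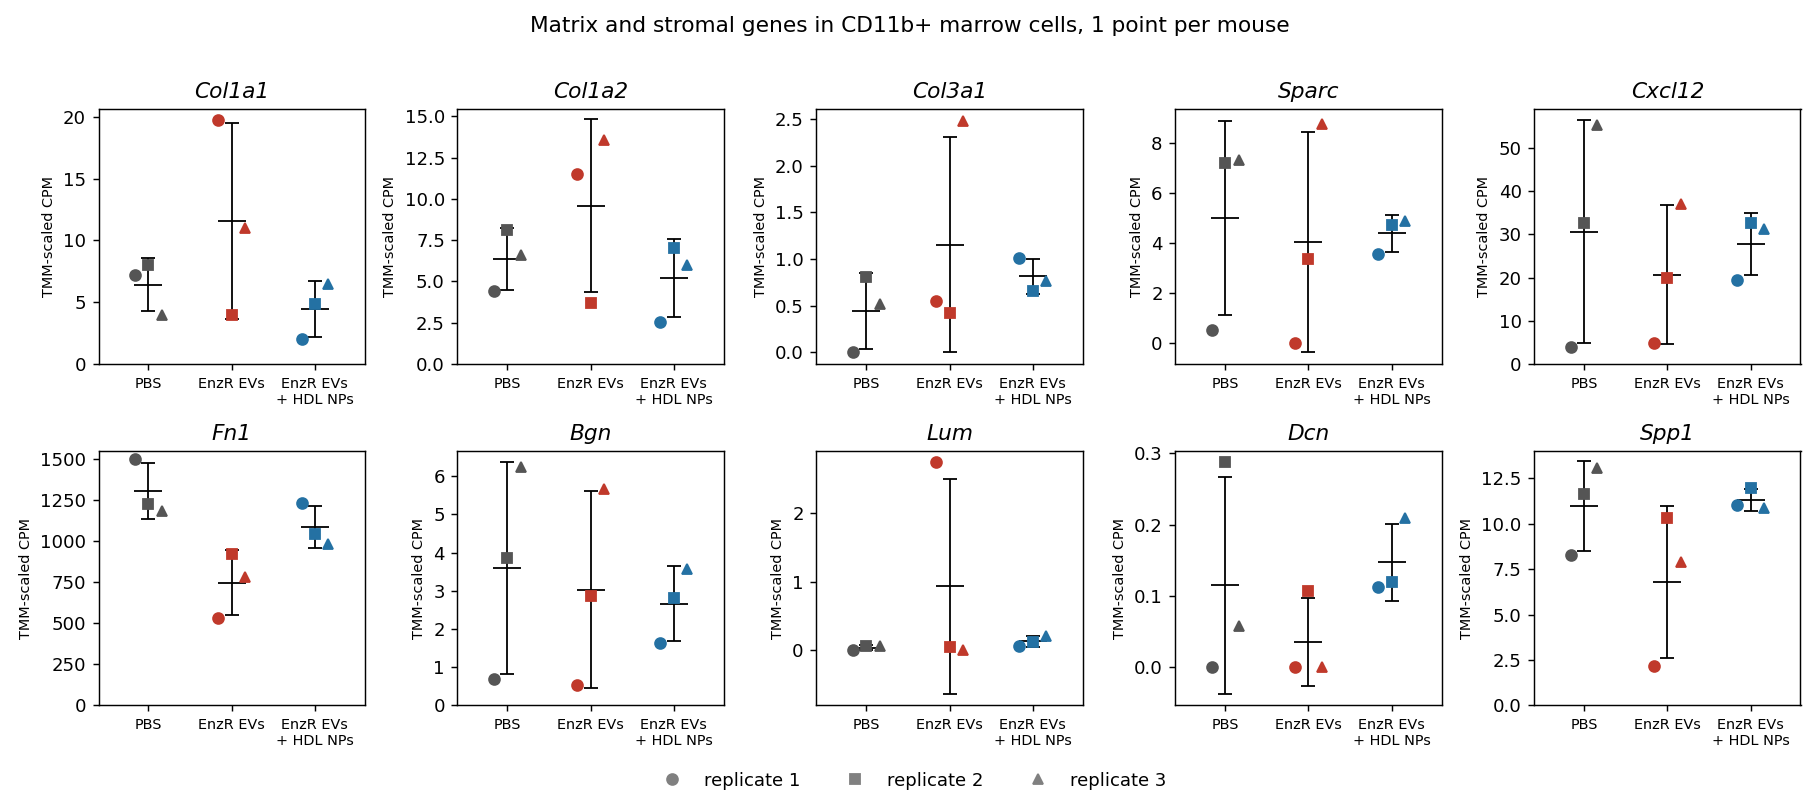
TMM-scaled CPM of each member in each mouse (linear axes, 1 panel per gene), with shape for replicate, a horizontal bar for the group mean and whiskers of 1 SD (n = 3). In the Fn1 panel the 3 EnzR EVs mice sit between 533 and 923 CPM, below the 6 others, while in the Cxcl12, Sparc and Bgn panels replicate 1 of PBS and of EnzR EVs sits near the bottom.

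Cxcl12, the CXCR4 ligand, lies at chr6:117168535-117181367 on the plus strand. Its level was 3.87, 32.7 and 55.3 CPM after PBS, 4.94, 19.9 and 37.1 CPM after EnzR EVs, and 19.5, 32.6 and 31.2 CPM after EnzR EVs + HDL NPs. The groups overlapped in all 3 comparisons, and the spread within PBS and within EnzR EVs was wider than any difference between group means. PBS replicate 2 was 8.44-fold above PBS replicate 1, and EnzR EVs replicate 2 was 4.02-fold above EnzR EVs replicate 1. The counting interval in PBS replicate 1, 2.43 to 5.86 CPM from 22 counts, did not reach that of PBS replicate 2, 30.0 to 35.5 CPM. The log2 fold changes were -0.50 (SE 0.732), -0.17 (SE 0.717) and 0.34 (SE 0.732) for EnzR EVs against PBS, for the combined treatment against PBS and for the combined treatment against EnzR EVs alone. The edgeR adjusted p were 0.934, 1.00 and 0.839.

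Sparc encodes osteonectin, a collagen-binding glycoprotein of bone and basement membrane, and lies at chr11:55394500-55423183 on the minus strand. It was at 0.528, 7.19 and 7.32 CPM after PBS, at 0, 3.35 and 8.75 CPM after EnzR EVs, and at 3.55, 4.71 and 4.89 CPM after EnzR EVs + HDL NPs. PBS replicate 1 held 3 counts (0.109 to 1.54 CPM) against 125 in PBS replicate 2 (5.98 to 8.57 CPM). EnzR EVs replicate 1 held 0 counts, which allow up to 1.65 CPM by the limit of 3 counts, against 63 counts in EnzR EVs replicate 2 (2.58 to 4.29 CPM). By the interval used for counts above 0, the upper end for this 0 count would be 2.02 CPM. The groups overlapped throughout. Sparc differed between groups by log2 fold changes of -0.18 (SE 0.774), -0.28 (SE 0.743) and -0.092 (SE 0.774) in the same order of comparisons, none below an edgeR adjusted p of 0.965. In the last comparison the fitted sign ran against the mean CPM, which was 4.38 after EnzR EVs + HDL NPs and 4.03 after EnzR EVs.

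Bgn encodes biglycan, a small leucine-rich proteoglycan that binds collagen, and lies at chrX:73483602-73495933 on the plus strand. It was at 0.704, 3.85 and 6.24 CPM after PBS, at 0.549, 2.87 and 5.67 CPM after EnzR EVs, and at 1.63, 2.80 and 3.56 CPM after EnzR EVs + HDL NPs. The low values again belonged to replicate 1 of PBS, with 4 counts, and of EnzR EVs, with 1 count, and for the latter the counting interval (0.0139 to 3.06 CPM) reached into that of EnzR EVs replicate 2 (2.16 to 3.75 CPM). Its log2 fold changes were -0.14 (SE 0.664), -0.52 (SE 0.640) and -0.38 (SE 0.669), with edgeR adjusted p of 0.983, 1.00 and 0.796.

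Cxcl12, Sparc and Bgn thus followed each other. Across the 9 libraries, Pearson's r of log2 CPM was 0.92 for Cxcl12 with Sparc, 0.96 for Cxcl12 with Bgn and 0.93 for Sparc with Bgn, a description in which the libraries share depth and scaling. Spp1 had r of 0.86 with Sparc, 0.69 with Cxcl12, 0.68 with Bgn and 0.78 with Fn1. All 3 were lower in PBS replicate 1 and EnzR EVs replicate 1 than in each of the other 7 libraries. These libraries were set apart by their totals and not by these genes, and 19.3% of the 12553 tested genes (2425) had the same order, so that 3 of 8 members is to be read beside that share. Among the reticular stromal genes, 7 of 16 tested had it: Lepr, Kitl, Adipoq, Cdh11, Igfbp5, Gas6 and Esm1. Lepr was at 0.352 and 0.549 CPM in those libraries and at 2.48 to 8.35 CPM in the other 7, and Gas6, a ligand of the AXL receptor, at 0.528 and 0.549 CPM against 2.71 to 9.78 CPM. Among the endothelial genes it was 6 of 16, and among the CD11b myeloid genes 9 of 18, so the order was not limited to stromal genes. No gene of 9 erythroid or 13 B lineage genes tested had it. Depth and the Rn45s share moved with these values, and their part in the result was not tested. EnzR EVs replicate 3, with the third highest Rn45s share, had Cxcl12, Sparc and Bgn levels above those of EnzR EVs replicate 2.

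**Figure D3:**
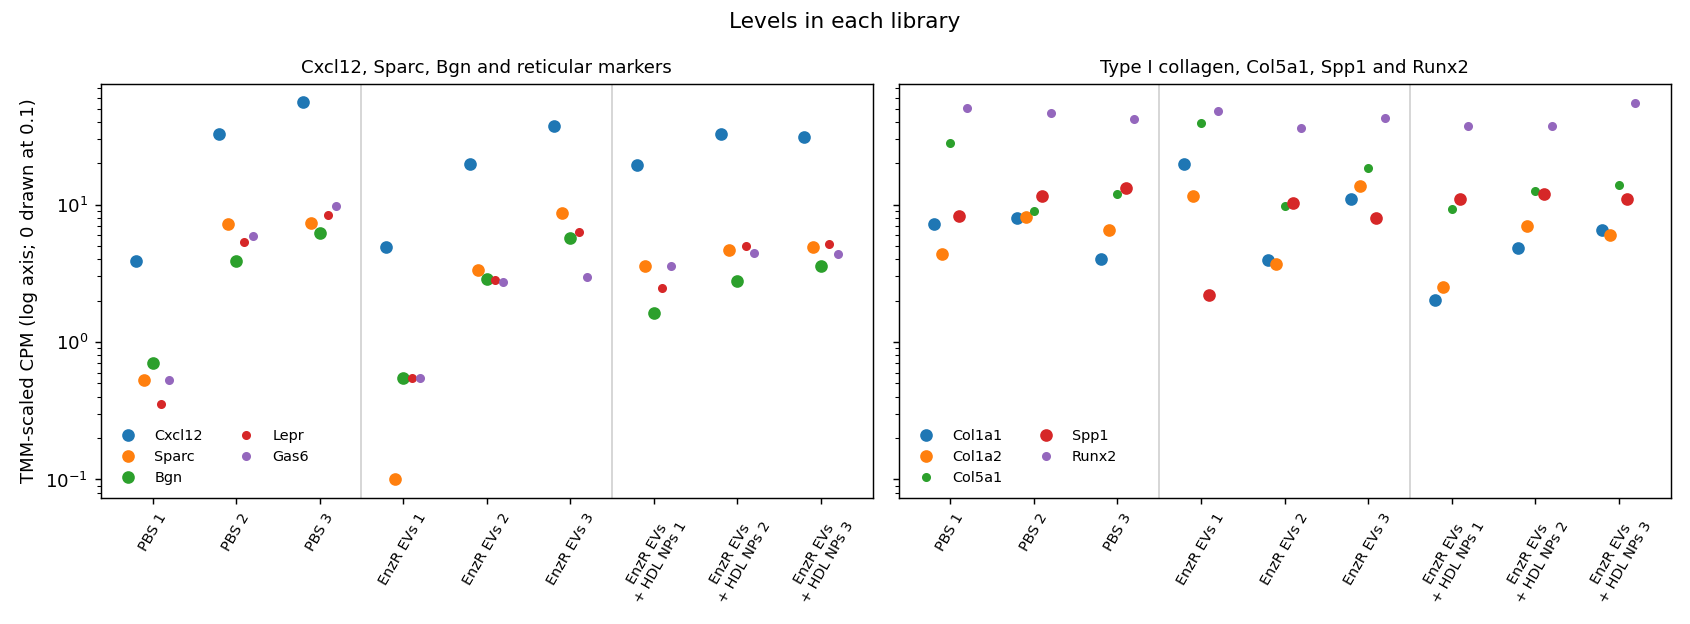
TMM-scaled CPM (log axis, 0 drawn at 0.1) of Cxcl12, Sparc, Bgn and the reticular markers Lepr and Gas6 on the left, and of Col1a1, Col1a2, Col5a1, Spp1 and Runx2 on the right, in each of the 9 libraries. The left-hand genes share low values in PBS 1 and EnzR EVs 1, where Col1a1 stood at 7.22 and 19.8 CPM. Spp1, drawn on the right, was lowest in EnzR EVs 1 at 2.19 CPM.

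Type I collagen did not follow that order. Col1a1 (chr11:94936224-94953042, plus strand) and Col1a2 (chr6:4504814-4541544, plus strand) encode the chains of the main collagen of bone. Col1a1 was at 7.22, 8.05 and 4.00 CPM after PBS, at 19.8, 3.94 and 11.0 CPM after EnzR EVs, and at 2.03, 4.83 and 6.50 CPM after EnzR EVs + HDL NPs. Its highest level was thus in EnzR EVs replicate 1, from 36 counts (13.8 to 27.3 CPM), the library in which Sparc had 0 counts. Col1a2 was at 4.40, 8.11 and 6.58 CPM after PBS, at 11.5, 3.67 and 13.6 CPM after EnzR EVs, and at 2.53, 7.03 and 6.01 CPM after EnzR EVs + HDL NPs. For both genes EnzR EVs replicates 1 and 3 were the highest libraries and all groups overlapped. These libraries had Rn45s shares of 42.7% and 14.2%, and PBS replicate 1, with 20.3%, was at 7.22 CPM for Col1a1 and 4.40 CPM for Col1a2. The part of the Rn45s share in these levels was not tested. Pearson's r between Col1a1 and Col1a2 was 0.84 over the 9 libraries, against -0.40 for Col1a1 with Cxcl12 and -0.52 for Col1a1 with Sparc. For Col1a2 it was 0.12 with Cxcl12, 0.19 with Bgn and -0.073 with Sparc. Cxcl12 counts per type I collagen count were 0.333, 2.02 and 5.23 after PBS, 0.158, 2.61 and 1.51 after EnzR EVs, and 4.27, 2.75 and 2.49 after EnzR EVs + HDL NPs.

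For Col1a1 the log2 fold change was 0.71 (SE 0.579, edgeR adjusted p = 0.928) for EnzR EVs against PBS and -1.23 (SE 0.581, edgeR adjusted p = 0.461) for EnzR EVs + HDL NPs against EnzR EVs. For Col1a2 the same values were 0.50 (SE 0.514) and -0.82 (SE 0.514), with edgeR adjusted p of 0.928 and 0.502. For EnzR EVs against PBS the value of Col1a1 was 0.19 without EnzR EVs replicate 1 and 1.22 without EnzR EVs replicate 2, and that of Col1a2 was -0.0095 without EnzR EVs replicate 3 and 1.00 without EnzR EVs replicate 2. Against PBS, EnzR EVs + HDL NPs gave -0.53 (SE 0.559) for Col1a1 and -0.32 (SE 0.496) for Col1a2, both with an edgeR adjusted p of 1.00. The genes outside the set whose log2 CPM was most like the mean of Col1a1 and Col1a2 over the 9 libraries were Lasp1 (Pearson's r 0.96), Max (0.96), Ube3b (0.96), Med20 (0.95) and Rasl11b (0.95). Each of these 5 genes had its highest levels in EnzR EVs replicates 1 and 3.

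Col3a1, which encodes type III collagen, lies at chr1:45311538-45349706 on the plus strand and had 0 to 21 counts per library. Its highest level, 2.48 CPM (1.54 to 3.80), was in EnzR EVs replicate 3, and the others lay between 0 and 1.01 CPM. Its log2 fold changes of 1.21 (SE 0.821), 0.64 (SE 0.777) and -0.57 (SE 0.775) rest on few counts, with edgeR adjusted p of 0.928, 1.00 and 0.736. Lum and Dcn encode lumican and decorin, small leucine-rich proteoglycans of fibroblasts, and lie on chromosome 10 at chr10:97565128-97572703 and chr10:97479609-97518143. Lum had 5 counts in EnzR EVs replicate 1, or 2.74 CPM (0.891 to 6.40), and 0 to 3 counts elsewhere. Dcn had 0 to 5 counts in each library. Lum and Dcn were below the filter on low counts, and no difference between groups was tested for them.

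In edgeR's quasi-likelihood test with Benjamini-Hochberg adjustment at 0.05, 0 of the 8 tested members were called in any of the 3 comparisons, where 0% of all 12553 genes were called in each. For EnzR EVs against PBS, 1 member had an unadjusted p under 0.05, beside 3.47% of all genes (436), and 1 member, Fn1, did not overlap between groups, beside 7.96%. For EnzR EVs + HDL NPs against PBS, 0 members had an unadjusted p under 0.05, beside 2.13% (268), and 0 did not overlap, beside 13.2%. For EnzR EVs + HDL NPs against EnzR EVs, 1 member had an unadjusted p under 0.05, beside 10.6% (1325), and 2 members, Fn1 and Spp1, did not overlap, beside 17.6%. Without the 2 libraries of lowest total, 2 members (Fn1 and Spp1, lower) did not overlap for EnzR EVs against PBS with 2 mice against 2, beside 43.3% of all genes. In that setting 3 members (Sparc, Cxcl12 and Bgn, lower) did not overlap for the combined treatment against PBS, beside 20.8%, and 2 (Fn1 and Spp1, higher) for the combined treatment against EnzR EVs, beside 24.1%. Where groups of 3 did not overlap, the two-sided exact permutation test gave p = 0.1, the smallest that 3 mice against 3 allow. The median log2 fold change of the tested members was -0.16, -0.27 and -0.24 in the same order, beside -0.027, -0.0072 and 0.033 over all tested genes. DESeq2 called 8, 7 and 1 of all genes and 0 members, and limma's voom called 0 genes in each comparison.

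**Figure D4:**
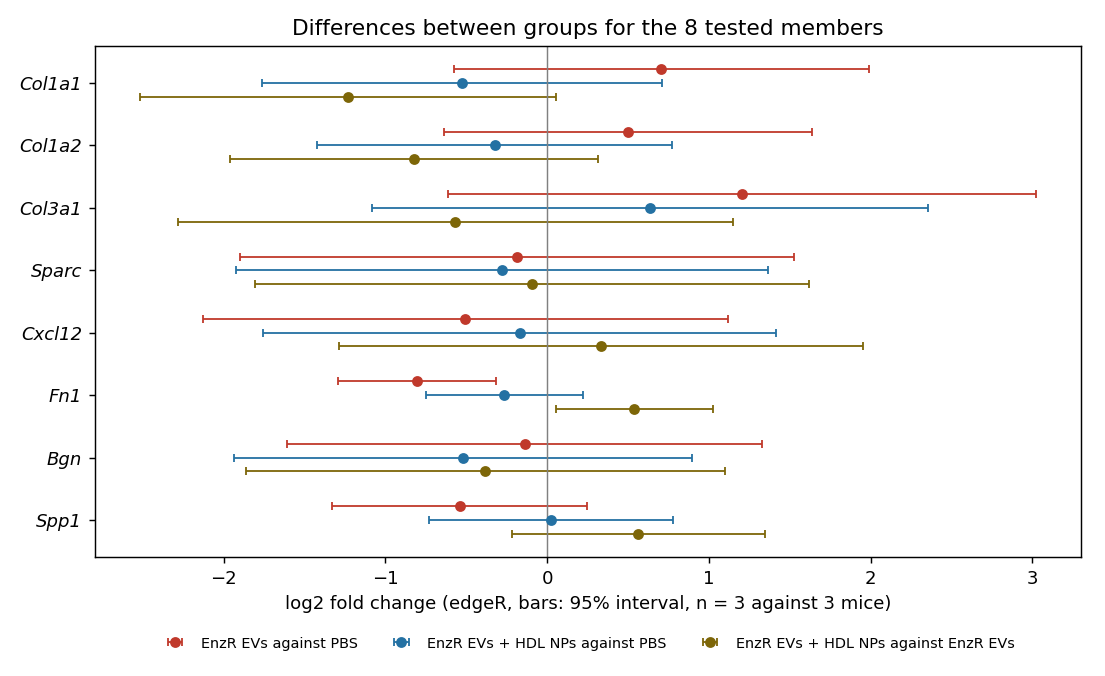
Log2 fold change (x axis, edgeR) of the 8 tested members in the 3 comparisons, with 95% intervals (n = 3 against 3 mice). The intervals of Fn1 for EnzR EVs against PBS (-1.29 to -0.32) and for EnzR EVs + HDL NPs against EnzR EVs (0.052 to 1.03) do not reach 0, and those of the other members do.

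Other genes of the matrix were read from lists of gene names, and edgeR called none of their members in any comparison. Of 14 tested other collagen genes, 11 had a positive log2 fold change for EnzR EVs against PBS (median 0.44) and 12 a negative one for EnzR EVs + HDL NPs against EnzR EVs (median -0.57), comparisons that share the EnzR EVs mice. For the combined treatment against PBS 6 were positive and 8 negative. An unadjusted p under 0.05 was found for 1 of the 14, with lower levels, for EnzR EVs against PBS, beside 3.47% of all genes. For the combined treatment 0 had one against PBS, beside 2.13%, and 0 against EnzR EVs, beside 10.6%. The 24 listed genes summed to 89.4, 63.7 and 80.5 CPM after PBS, 154, 52.9 and 100.1 CPM after EnzR EVs and 52.1, 60.6 and 77.6 CPM after EnzR EVs + HDL NPs. EnzR EVs replicates 1 and 3, the high libraries, were those with Rn45s shares of 42.7% and 14.2%, while EnzR EVs replicate 2, at 1.15%, lay below all 3 PBS mice. The part of the Rn45s share in this result was not tested. Col5a1, a chain of the minor fibrillar type V collagen, was at 28.0, 8.92 and 12.0 CPM after PBS, 39.5, 9.85 and 18.4 CPM after EnzR EVs and 9.29, 12.5 and 13.9 CPM after EnzR EVs + HDL NPs. Like Col1a1 it was highest in EnzR EVs replicate 1. Col14a1, a fibril-associated collagen, was lower in all 3 EnzR EVs mice than in all 3 PBS mice (log2 fold change -0.72, edgeR adjusted p = 0.928). Groups did not overlap for 7.96% of all genes in this comparison, and Col14a1 had the smallest p of its list. It was also lower in all 3 EnzR EVs + HDL NPs mice than in all 3 PBS mice (log2 fold change -0.54), beside 13.2% of all genes not overlapping.

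Of 18 tested collagen processing genes, 5 had an unadjusted p under 0.05 with lower levels and 1 with higher levels for EnzR EVs + HDL NPs against EnzR EVs, beside 10.6% of all genes in either direction, and the median log2 fold change was -0.44. For EnzR EVs against PBS 0 of the 18 had one, beside 3.47%, and for the combined treatment against PBS 2 had one, both with lower levels, beside 2.13%. Those of the first comparison included P4hb, a subunit of prolyl 4-hydroxylase (log2 fold change -0.59, edgeR adjusted p = 0.461), and Loxl1, a lysyl oxidase that crosslinks elastin and collagen (-2.34, edgeR adjusted p = 0.461), the latter on 3 to 15 counts per library. The 25 listed genes summed to 903, 751 and 793 CPM after PBS, 1004, 907 and 953 CPM after EnzR EVs and 823, 710 and 682 CPM after EnzR EVs + HDL NPs. P4hb alone averaged 433, 547 and 363 CPM in the same groups, a large part of these sums. Within PBS and within EnzR EVs the highest sums were those of the libraries with high Rn45s shares, PBS replicate 1 and EnzR EVs replicates 1 and 3. The part of the Rn45s share in these sums was not tested. Of 14 other matrix glycoproteins, Lamc1, the laminin gamma 1 chain, was at 3.87, 2.70 and 2.97 CPM after PBS, 5.49, 4.26 and 7.33 CPM after EnzR EVs, and 3.60, 2.50 and 3.49 CPM after EnzR EVs + HDL NPs. Its log2 fold change was 0.86 for EnzR EVs against PBS (edgeR adjusted p = 0.928). Lamc1 was named for the smallest p of its list, and its groups did not overlap, as for 7.96% of all genes, in this comparison.

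Of the CXCL12 receptors, Cxcr4 was at 407 to 506 CPM in the 9 libraries, with log2 fold changes of -0.16, -0.12 and 0.042 (edgeR adjusted p of 0.928, 1.00 and 0.902), and Cxcr7, also called Ackr3, had 0 to 4 counts. Of 22 tested matrix receptors, Itga4, an integrin subunit that binds fibronectin and VCAM1, gave a log2 fold change of -0.22 for EnzR EVs against PBS and 0.41 for EnzR EVs + HDL NPs against EnzR EVs (edgeR adjusted p of 0.928 and 0.461). Cd44, a receptor of hyaluronan and osteopontin, gave -0.22 and 0.24 (edgeR adjusted p of 0.928 and 0.663). Mrc1, the macrophage mannose receptor, which binds collagen, gave -1.07 (edgeR adjusted p = 0.928) and 0.66 (adjusted p = 0.461). Of 21 tested matrix proteases and inhibitors, Mmp9, the gelatinase of neutrophils and osteoclasts, gave log2 fold changes of -0.14 and 0.13, and Ctsk, the collagen-degrading protease of osteoclasts, gave -1.79 (edgeR adjusted p = 0.928) and 0.89 on 0 to 154 counts per library.

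Of 20 macrophage genes, all tested, 18 had a negative log2 fold change for EnzR EVs against PBS (median -0.71) and 8 of the 20 an unadjusted p under 0.05, beside 3.47% of all genes. For the combined treatment against PBS 19 of 20 had a negative one (median -0.42), 4 with an unadjusted p under 0.05, beside 2.13%, and against EnzR EVs alone 16 of 20 had a positive one (median 0.31). In that last comparison 0 of the 20 had an unadjusted p under 0.05 with higher levels and 2 with lower levels, beside 10.6% of all genes in either direction. They included C1qb, a complement C1q chain (log2 fold change -1.42, edgeR adjusted p = 0.461). From lowest to highest, C1qb was at 45.9, 66.9 and 191 CPM in the EnzR EVs mice, and it reached at most 43.5 CPM after EnzR EVs + HDL NPs. The summed level of the 20 macrophage genes was 1832, 2185 and 2902 CPM after PBS, 1501, 1793 and 1653 CPM after EnzR EVs and 1901, 1807 and 1794 CPM after EnzR EVs + HDL NPs, with none of the 20 at 0 in any library. Platelet and megakaryocyte genes, whose list includes Thbs1, a matrix glycoprotein of platelets and myeloid cells, summed to 1368, 2394 and 2358 CPM after PBS, 734, 1096 and 980 CPM after EnzR EVs and 1521, 1651 and 1991 CPM after EnzR EVs + HDL NPs. For both lists the lowest sums within PBS and within EnzR EVs were those of the libraries with high Rn45s shares, PBS replicate 1 and EnzR EVs replicates 1 and 3. Thbs1 alone was at 1073 to 1799 CPM after PBS, 560 to 628 CPM after EnzR EVs and 1012 to 1447 CPM after EnzR EVs + HDL NPs. Its log2 fold change was -1.38 for EnzR EVs against PBS (edgeR adjusted p = 0.449). For EnzR EVs + HDL NPs against EnzR EVs it was 1.02 (edgeR adjusted p = 0.461). Thbs1 had the smallest p of the platelet and megakaryocyte list in both comparisons, in which 7.96% and 17.6% of all genes did not overlap between groups. The other 19 genes of that list summed to 295 to 620, 174 to 468 and 509 to 544 CPM, so that without Thbs1 the EnzR EVs and PBS mice overlapped. F5, 1 of these 19 genes, averaged 281, 195 and 321 CPM in the same groups, a large part of these sums. The median log2 fold change of the 19 tested genes of the list, Thbs1 included, was -0.52 for EnzR EVs against PBS and -0.59 for the combined treatment against PBS. The part of these cell types in the Fn1 values, and that of the Rn45s share in these sums, was not tested.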

How the data were processed

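Stranded total RNA of CD11b+ marrow cells from 9 mice was sequenced as 75-base single reads. The authors trimmed reads with cutadapt 1.13, aligned them to mm10 with STAR and made the deposited counts per gene, whole numbers with no normalization, with HTSeq 0.6.1p1 (submitters' processing notes). The strand setting is not given in the sources used here. The 10 members and the other gene lists were chosen with earlier results of these data known.

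Counts were tested with edgeR 4.0.16 (R 4.3.3) by the robust quasi-likelihood test, with TMM scaling, the default filter (count minimum 10) and 1 coefficient per group over all 9 libraries. P-values were adjusted by the Benjamini-Hochberg method over 12553 genes, with a threshold of 0.05. Log2 CPM used a prior count of 2. Exonic lengths and positions came from GENCODE M21, whose gene models may differ from the annotation used for counting. Alternatives were DESeq2 1.42.0, limma 3.58.1 (voom), other scalings, no filter, 6 libraries only, a replicate block and leaving out each replicate. Sample quality weights and leaving out both libraries of lowest total were added after seeing the data.

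The rule for named genes took all members and, from each list, the 2 with the highest mean CPM, any gene called and the one with the smallest p in each comparison. The text names a part of the list genes the rule took, and other list genes it names were chosen after their values were seen. For likeness, the 5 tested genes closest by Pearson's r to the mean of Col1a1 and Col1a2 were named. Same-numbered mice of different groups had deviations from the group means that correlated between -0.18 and 0.49 over genes, and all above 0.1 for EnzR EVs against PBS alone, so the numbers were not taken to pair the mice throughout. Fn1, Spp1 and Bgn were lower in each EnzR EVs mouse than in the PBS mouse of the same number, and the other tested members were not. The share of all genes with that order was not counted, so it is not read as a result. The replicate block changed no member's call. The most similar replicates, PBS 2 and 3, differed beyond sampling noise (chi-square per gene 4.64).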

Additional observations from a re-analysis of the deposited data

How the results depend on the processing

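Of 359 log2 fold changes of the members under the alternatives, 322 kept their direction and side of the threshold, 36 changed sign, 23 of them with 1 replicate left out, and 1 passed the threshold. That was Fn1 for EnzR EVs against PBS with sample quality weights (-0.67), the only setting in which a member was called (1 member). Fn1 and Col1a1 kept their sign in all comparisons and settings, though not their size. The causes of the changes below were not tested. Counts near the limit of detection limit Lum and Dcn, few counts limit Col3a1, and few counts in PBS replicate 1 and EnzR EVs replicate 1 limit Sparc and Bgn.

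Of all genes, DESeq2 called 8 for EnzR EVs against PBS, 7 for the combined treatment against PBS and 1 for the combined treatment against EnzR EVs, where edgeR called 0. With sample quality weights the counts were 1990, 10 and 653. For EnzR EVs against PBS, 1 gene was called with no filter on low counts, 1 with the replicate block, 5 without the 2 libraries of lowest total and 0 to 2 with 1 replicate left out, the 2 coming without PBS replicate 1. For the combined treatment against EnzR EVs, 1 gene was called in the 6 libraries only and 1 without the 2 libraries of lowest total. Without those libraries, 2 members did not overlap for EnzR EVs against PBS and 3 for the combined treatment against PBS, beside 43.3% and 20.8% of all genes. Scaling by library size only moved the median log2 fold change of all genes to -0.18, 0.047 and 0.24 in the 3 comparisons, and it put the summed level of the members in EnzR EVs + HDL NPs replicate 1 at 1451 CPM.

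For the combined treatment against EnzR EVs, Sparc reversed to 0.052 with DESeq2, 0.39 with voom, 0.060 with library size only and 0.40 with the replicate block, and Cxcl12 to -0.17 with sample quality weights and -0.030 without the 2 libraries of lowest total. For the combined treatment against PBS, Cxcl12 reversed to 0.14 with voom and 0.36 with the replicate block, Sparc to 0.11 with the block, and Spp1 to -0.0071 with voom, -0.092 with sample quality weights and -0.13 without the 2 libraries. For EnzR EVs against PBS, Bgn reversed to 0.036 with sample quality weights. The replicate block changed no other member's sign and no member's call.

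With 1 replicate left out, values for EnzR EVs against PBS ranged from -0.0095 to 1.00 for Col1a2, from -0.20 to 1.84 for Col3a1, from -1.11 to 0.14 for Sparc, from -1.16 to 0.22 for Cxcl12, from -0.77 to 0.47 for Bgn, from 0.19 to 1.22 for Col1a1, from -0.87 to -0.27 for Spp1 and from -0.96 to -0.61 for Fn1. For the combined treatment against PBS they ranged from -0.61 to 0.023 for Col1a2, from -0.73 to 0.057 for Sparc, from -0.67 to 0.55 for Cxcl12, from -0.93 to 0.089 for Bgn, from -0.89 to -0.17 for Col1a1, from 0.30 to 1.25 for Col3a1, from -0.36 to -0.15 for Fn1 and from -0.13 to 0.16 for Spp1. For the combined treatment against EnzR EVs they ranged from -1.20 to 0.85 for Col3a1, from -0.43 to 0.84 for Sparc, from -0.035 to 0.99 for Cxcl12, from -0.66 to 0.25 for Bgn, from -1.75 to -0.72 for Col1a1, from -1.32 to -0.31 for Col1a2, from 0.29 to 0.90 for Spp1 and from 0.34 to 0.70 for Fn1.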

Other observations

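The other lists also held no gene called by edgeR. All 13 tested B lineage genes had a negative log2 fold change for EnzR EVs against PBS (median -1.01) and for the combined treatment against PBS (median -0.85), comparisons that share the PBS mice. Of the 13, 3 and 2 had an unadjusted p under 0.05, beside 3.47% and 2.13% of all genes. For the combined treatment against EnzR EVs 9 of 13 were positive. The summed levels overlapped, at 55.4, 30.8 and 43.9 CPM after PBS, 42.3, 18.3 and 15.5 CPM after EnzR EVs and 41.0, 20.3 and 14.8 CPM after EnzR EVs + HDL NPs. Replicate 1 was highest in each group. Pax5, the B cell identity factor, gave -2.29 (edgeR adjusted p = 0.928) for EnzR EVs against PBS and -1.85 (edgeR adjusted p = 1.00) for the combined treatment against PBS. These values rest on few counts, 27 in all after PBS, 4 after EnzR EVs and 9 after EnzR EVs + HDL NPs. Of 9 tested erythroid genes, 8 had a negative log2 fold change in each comparison against PBS, with medians of -0.96 for EnzR EVs and -0.44 for the combined treatment. For EnzR EVs against PBS the median was -0.45 over 16 reticular stromal genes, -0.33 over 16 endothelial genes, -0.38 over 10 osteoclast genes, -0.52 over 19 platelet and megakaryocyte genes and -0.14 over 18 CD11b myeloid genes. It was 0.13 over 9 fibroblast genes, 0.054 over 6 mural and smooth muscle genes, -0.16 over 5 osteoblast and osteocyte genes, -0.28 over 6 other small proteoglycans and 0.11 over 14 other matrix glycoproteins, beside -0.027 over all tested genes.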
